A study of Homo sapiens with 4 samples.

Results

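The genes described here encode collagens, laminin chains, integrin subunits, syndecans and other proteins of the basement membrane, and they were measured in OMM 2.3 cells, an established human uveal melanoma line labelled as wild type. The members were chosen by gene symbol, and the group was proposed with its input levels and m6A peaks already known, so those values are given below as a description, with no test. Of the 14416 genes in the gene table, 76 matched: 35 collagens, 12 laminin chains, 21 integrin subunits, 4 other basement membrane and adhesive proteins (HSPG2, AGRN, NID1 and FN1) and 4 syndecans. RefSeq holds 90 protein-coding symbols that match, and those outside the table were not analysed here. Cells were exposed for 24 h to MA, meclofenamic acid, or to DMSO in the control called NC, and the dose is not given in the sources used here. Meclofenamic acid blocks cyclooxygenases and is also known as an inhibitor of FTO, an enzyme that removes N6-methyladenosine (m6A) from RNA, and the design compares RNA levels and m6A with and without it. For NC and for MA there was 1 input library of fragmented poly(A) RNA, which gives RNA levels, and 1 library of fragments captured on beads with an antibody to m6A (RIP), which gives a peak list when set against its input. With 1 library for each of these 4 groups, no p-value, SD or standard error was computed, and every difference is one between these libraries.

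The basement membrane is a thin sheet of matrix on which cells rest. Laminins, trimers of an alpha, a beta and a gamma chain, form one network in it and type IV collagen another, and the heparan sulfate proteoglycans perlecan (gene HSPG2) and agrin and the nidogens connect them. Cells hold on to this sheet through integrins, pairs of an alpha and a beta subunit, with syndecans as co-receptors that carry heparan sulfate. In the eye, uveal melanocytes lie in a stroma rich in collagen, and the looping matrix patterns of uveal melanoma contain laminin. N6-methyladenosine is placed on messenger RNA by a nuclear writer complex, most often near the stop codon and in the 3' UTR.

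The totals behind the per-million scale of the input levels were 37041597 in NC and 41630895 in MA, recovered from the deposited values. All 7 melanocyte lineage markers (PMEL, MLANA, TYR, TYRP1, DCT, MITF and SOX10) were expressed, and their summed level was 7307 FPKM in NC and 3172 in MA. Of the fibroblast, endothelial and epithelial markers in the table (5, 2 and 4 genes), LUM alone reached 1 FPKM (4.96 in NC and 12.0 in MA). The sums were 5.23 and 12.2 FPKM for fibroblast markers, 0.292 and 0.127 for endothelial and 0.168 and 0.144 for epithelial markers, NC before MA. CDH1 and KRT19 were listed at 0 in MA.

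Levels are FPKM, fragments scaled to gene length and to the library total. The length scaling lets genes be compared within a library. FPKM need not sum to the same value in each library, so counts after rescaling are also given. A difference is the log2 ratio of MA to NC after adding 1 FPKM to both, which understates the change of low genes. Genes that reached 1 FPKM in either input are called tested here. Of the 76 genes, 29 met this. Among them, 8 were lower by 2-fold or more with MA, and 1 was higher by as much. Over all 10564 tested genes, 2.98% were called lower and 10.3% were called higher on the same scale. The median difference was -0.22 for the 29 genes and 0.11 for all tested genes. After rescaling to TPM, 2 of the 29 were called higher and 7 lower, and over all tested genes 17.0% were higher and 2.98% lower. After rescaling to a median difference of 0 over all tested genes, 1 of the 29 was called higher and 9 lower. Over all tested genes it was then 739 higher and 438 lower in place of 1087 and 315.

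**Figure D1:**
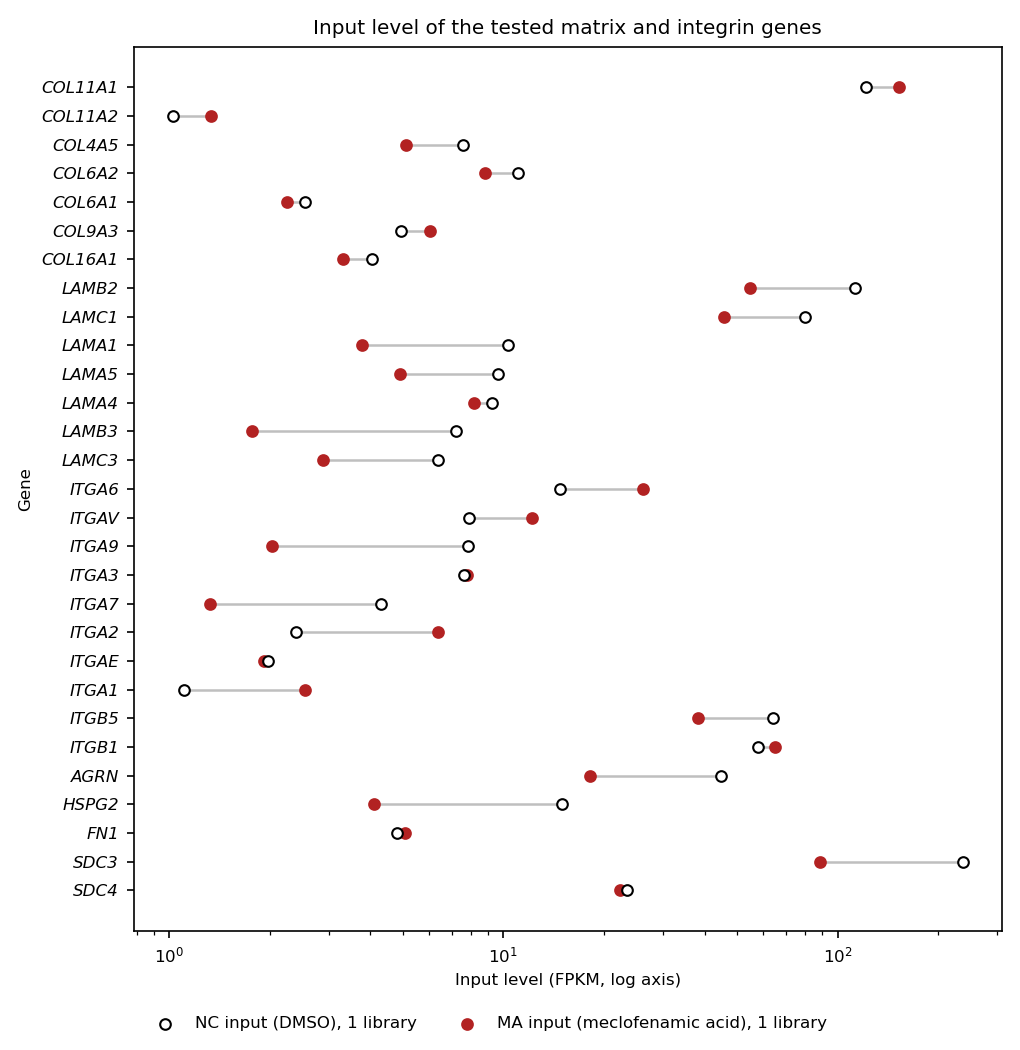
Input level in FPKM (log axis) of the 29 genes that reached 1 FPKM in either input, with the NC library as an open circle and the MA library as a filled red circle. SDC3, COL11A1, LAMB2 and LAMC1 were the most abundant in NC, and all 7 laminin chains shown lie lower in MA than in NC.

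All 7 tested laminin chains were lower with MA, where 4573 of all 10564 tested genes were below 0. The 7 differed by -0.16 to -1.57 on the log2 scale with a median of -0.92, and each lay below 0 under every rescaling tried. The beta chain LAMB2 was the most abundant, at 113 FPKM in NC and 54.5 in MA. The gamma chain LAMC1, which is shared by most laminin trimers, was at 79.9 FPKM in NC and 45.9 in MA. These chains were far more abundant than any alpha chain in either library.

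Among the alpha chains, which carry the main integrin-binding domains, LAMA1 was at 10.3 FPKM in NC and 3.79 in MA, LAMA5 at 9.62 and 4.90, and LAMA4 at 9.22 and 8.15. The 3 were close to one another in NC, while in MA LAMA4 was the most abundant of them. The log2 difference was -1.24 for LAMA1, -0.85 for LAMA5 and -0.16 for LAMA4, so the alpha chains differed from one another more than the beta or gamma chains did.

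LAMB3, a beta chain best known from epithelial anchoring structures, was at 7.21 FPKM in NC and 1.77 in MA (log2 difference -1.57). LAMA3, the alpha chain it usually joins, was at 0.0644 FPKM in NC and 0.121 in MA. LAMC3 was at 6.38 FPKM in NC and 2.89 in MA, a difference of -0.92 that passes 2-fold with a pseudocount of 0.1 (-1.12) or after rescaling to a median of 0 (-1.02). LAMB2, at -1.04, falls under 2-fold after rescaling to TPM (-0.97). LAMB1, LAMA2 and LAMB4 were under 1 FPKM, LAMB1 at 0.257 in NC and 0.440 in MA.

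Perlecan, agrin and syndecan-3, 3 carriers of heparan sulfate, were also lower with MA. HSPG2, the perlecan gene, was at 15.0 FPKM in NC and 4.10 in MA, the lowest difference of the 29 genes (-1.65). AGRN, the agrin gene, was at 44.9 FPKM in NC and 18.1 in MA (-1.26). SDC3, the most abundant of the 29 genes in NC, was at 236 FPKM there and 88.5 in MA (-1.41). SDC4, the syndecan of focal adhesions, was at 23.5 and 22.3 FPKM, and its difference of -0.07 turns to 0.00 and above after rescaling to TPM. SDC1 was at 0.0583 FPKM in NC and listed at 0 in MA, and SDC2 was at 0.00690 and 0.172. NID1, which links laminin to type IV collagen, was at 0.0233 and 0.0539 FPKM. FN1, fibronectin, was at 4.80 FPKM in NC and 5.10 in MA, and its difference of 0.07 falls below 0 after rescaling to a median of 0 (-0.04).

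The lower values of these genes coincide with lower levels of the melanocyte lineage markers, 4 of which were lower by 2-fold or more with none higher. Their part in the values of the matrix genes was not tested. In bulk RNA, fewer cells of a type and less RNA per cell cannot be told apart.

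Counting error was small beside these differences. From the recovered minimum reads, the log2 ratio without a pseudocount was -1.87 for HSPG2 (exact 95% binomial interval -1.94 to -1.81, from 8346 reads in NC and 2565 in MA). It was -1.42 for SDC3 (-1.44 to -1.39), -1.31 for AGRN (-1.35 to -1.26), -1.05 for LAMB2 (-1.09 to -1.01) and -2.03 for LAMB3 (-2.21 to -1.85). Of the 29 genes, 16 had an interval wholly below 0, 8 wholly above 0, where over all tested genes 36.7% lay wholly below and 50.2% wholly above. The genes COL6A1, ITGA3, ITGAE, FN1 and SDC4 had intervals that include 0. These intervals cover counting error only, and reads from PCR without molecular identifiers are not independent molecules.

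**Figure D2:**
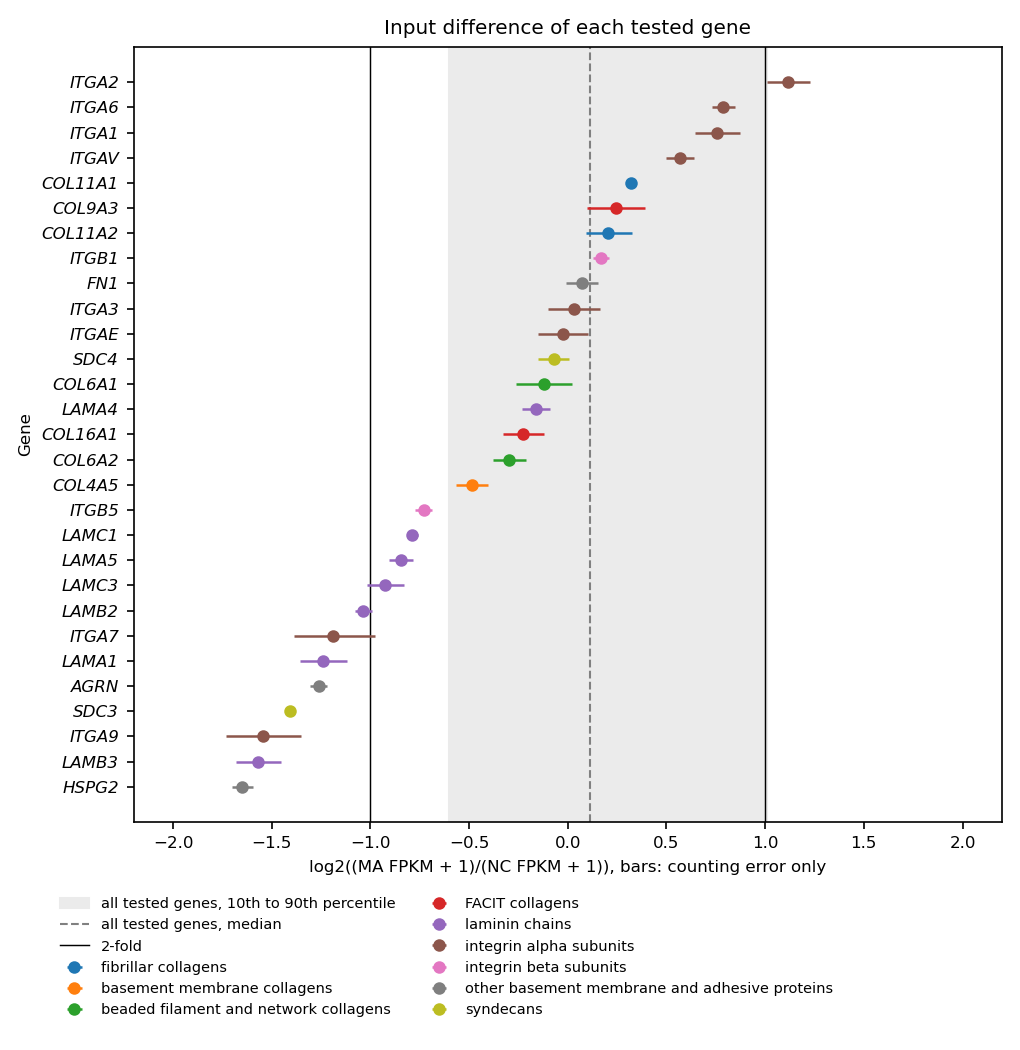
Difference in the inputs (log2 ratio of MA to NC, 1 FPKM added to both) of the 29 tested genes, coloured by role, with bars for counting error only, the 10th to 90th percentile of all tested genes in grey (-0.60 to 1.01) and their median as a dashed line (0.11). HSPG2, LAMB3, ITGA9, SDC3, AGRN, LAMA1, ITGA7 and LAMB2 lie beyond 2-fold on the left, and ITGA2 alone on the right. All 7 laminin chains lie below 0, with LAMA4 (-0.16) inside the grey range, and the collagens lie between -0.49 and 0.32.

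RefSeq promoter windows (GRCh38.p14, 250 bases before to 50 after the start) were matched for 21 of the 29 genes. They are shown for the 5 matched genes beyond 2-fold, of which ITGA2 was higher and the others lower with MA. AGRN, LAMA1, ITGA7 and ITGA9 were also beyond 2-fold but had no matched window. Shared regulation was not tested. Each line gives the 100 bases before the start, 5′ to 3′ on the strand of the gene, and capitals mark GGGCGG on either strand, the GC box bound by SP1 and KLF factors.
HSPG2 (chr1:21937311-21937410, minus strand): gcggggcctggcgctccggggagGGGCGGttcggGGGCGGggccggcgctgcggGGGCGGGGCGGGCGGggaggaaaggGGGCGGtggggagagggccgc
SDC3 (chr1:30908759-30908858, minus strand): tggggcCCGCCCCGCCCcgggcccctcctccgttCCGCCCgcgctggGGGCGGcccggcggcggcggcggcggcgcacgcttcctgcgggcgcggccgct
LAMB2 (chr3:49133051-49133150, minus strand): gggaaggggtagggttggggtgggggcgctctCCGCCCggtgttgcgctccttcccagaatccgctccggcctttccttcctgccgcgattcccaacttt
LAMB3 (chr1:209652426-209652525, minus strand): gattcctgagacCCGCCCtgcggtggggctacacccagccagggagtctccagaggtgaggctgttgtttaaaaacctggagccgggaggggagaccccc
ITGA2 (chr5:52989252-52989351, plus strand): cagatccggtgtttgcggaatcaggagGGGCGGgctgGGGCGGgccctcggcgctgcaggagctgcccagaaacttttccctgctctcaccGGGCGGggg

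All 5 of these promoters held a GC box. Over the whole windows, 15 of 21 matched genes held one (71.4%), against 72.1% of the 8698 matched tested genes and 44.6% of all 27305 windows. GC content of the 5 printed stretches ran from 64% in LAMB3 to 89% in SDC3. The E-box CATGTG was in 1 of the 21 windows (ITGAE) and in 6.20% of those of tested genes, CATTCC, the TEAD motif, in 1 (ITGB1) and 10.5%, and the AP-1 motif TGANTCA in 0 and 3.85%, each searched on both strands. Each motif was counted on its own, also where matches of different motifs overlap.

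The integrin alpha subunits went in different directions. ITGA2, which pairs with ITGB1 as a collagen receptor, was the single gene of the 29 called higher, at 2.39 FPKM in NC and 6.36 in MA (log2 difference 1.12, with an interval of the log2 ratio of 1.29 to 1.54). ITGA1, another collagen receptor subunit and the gene next to ITGA2 on chromosome 5, was at 1.11 FPKM in NC and 2.56 in MA. Its difference of 0.76 passes 2-fold with a pseudocount of 0.1 (1.14) or as TPM (1.04). ITGA6, a laminin receptor subunit, was the most abundant alpha subunit, at 14.7 FPKM in NC and 26.2 in MA (0.79). ITGAV, which binds vitronectin and fibronectin, was at 7.90 and 12.2 FPKM (0.57).

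ITGA9 and ITGA7 were lower. ITGA9, a receptor subunit for tenascin and related ligands, was at 7.85 FPKM in NC and 2.03 in MA (-1.54). ITGA7, a laminin receptor subunit best known from muscle, was at 4.31 FPKM in NC and 1.33 in MA (-1.19). Thus among ITGA6, ITGA7 and ITGA3, which all bind laminin, ITGA6 was higher, ITGA7 lower and ITGA3 near equal. ITGA3 was at 7.61 FPKM in NC and 7.80 in MA. These are not all the integrin subunits that can bind laminin. The difference of ITGA3, 0.03, turns to -0.08 after rescaling to a median of 0. ITGAE was at 1.97 and 1.92 FPKM, a difference of -0.03 that turns to 0.03 as TPM. The 8 tested alpha subunits ran from -1.54 to 1.12 with a median of 0.30.

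The beta subunits also split. ITGB1, the partner of most alpha subunits named here, was at 57.6 FPKM in NC and 64.9 in MA (0.17), above every alpha subunit in both inputs. ITGB5, a partner of ITGAV, was at 64.0 FPKM in NC and 38.2 in MA (-0.73), so it was above ITGB1 in NC and below it in MA. ITGB4, the other partner of ITGA6, was at 0.00393 and 0.00700 FPKM, and ITGB3, a further partner of ITGAV, at 0.304 and 0.574. The leukocyte integrin genes ITGAL, ITGAM, ITGAX and ITGB2 stayed under 1 FPKM in both inputs, the highest of these being ITGAX at 0.553 in NC. ITGAE, also a leukocyte integrin gene, was above 1 FPKM in both inputs (1.97 in NC and 1.92 in MA). Its partner ITGB7 was at 0.325 FPKM in NC and 0.711 in MA.

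Of the 35 collagens, 7 reached 1 FPKM and none differed by 2-fold. COL11A1, a fibrillar chain typical of cartilage, was by far the most abundant, at 122 FPKM in NC and 152 in MA (0.32). The chains that join it in a trimer were low: COL11A2 was at 1.03 and 1.34 FPKM (0.20) and COL2A1 at 0.0319 and 0.0162. COL6A2 was at 11.1 FPKM in NC and 8.84 in MA (-0.30) and its neighbour on chromosome 21, COL6A1, at 2.54 and 2.26 (-0.12), while COL6A3, the other chain of their trimer, was at 0.0119 and 0.00850.

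COL4A5, a type IV chain of basement membranes, was at 7.59 FPKM in NC and 5.13 in MA (-0.49). COL4A6, its neighbour on the X chromosome, was listed at 0 in NC and at 0.00285 in MA. The widespread type IV chains COL4A1 (0.00692 and 0.0139 FPKM) and COL4A2 (0.0168 and 0.00745) were near 0. COL9A3 was at 4.93 and 6.02 FPKM (0.24), with COL9A1 and COL9A2 at no more than 0.328 in either input, and COL16A1 was at 4.03 and 3.31 (-0.22). COL1A1, the main chain of fibroblast matrix, was at 0.0821 FPKM in NC and 0.106 in MA. So for types IV, VI, IX and XI, 1 or 2 chains were measured well above the other chains of the same type.

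The other 47 genes stayed under 1 FPKM in both inputs, 26 of them under 0.1, and 8 were listed at 0 in 1 of the inputs. Nearest to the limit were COL17A1 (0.943 FPKM in NC, 0.0342 in MA) and COL15A1 (0.821 and 0.524) below it, and COL11A2 (1.03 and 1.34) and ITGAE above it. COL17A1, a transmembrane collagen of epithelial anchoring junctions, rests on 49 minimum reads in NC and 2 in MA, which gives a log2 ratio of -4.78 with an interval of -7.87 to -2.85. SDC2 rests on 1 read in NC and 28 in MA, a log2 ratio of 4.64 with an interval of 2.04 to 9.99.

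Some genes overlap others, and the counting is not stated to use strand, so reads of overlapping genes cannot be told apart. In the RefSeq table ITGA1 overlaps PELO (9.46 FPKM in NC and 8.53 in MA), ITGA7 overlaps BLOC1S1 (118 and 102), FN1 overlaps ATIC (92.5 and 57.8), COL9A3 overlaps TCFL5 (14.6 and 6.68) and ITGAE overlaps HASPIN (5.75 and 9.48). Each of these 5 was at a higher level than the gene it overlaps in both inputs.

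The enzymes that modify and turn over these proteins differed among themselves. Of 32 listed genes of matrix processing and turnover, 16 were tested, 4 were called higher (25%) and 2 lower (12.5%), with a median difference of -0.14. Over all tested genes 10.3% were higher and 2.98% lower. P4HA1, the catalytic subunit of collagen prolyl hydroxylase, was at 9.83 FPKM in NC and 37.4 in MA (1.83), and the lysyl hydroxylase PLOD2 at 3.06 and 9.48 (1.37). PLOD3, another lysyl hydroxylase, went the other way, from 367 FPKM in NC to 132 in MA (-1.47). Of 29 listed adhesion complex and other matrix receptor genes, 25 were tested, 2 were called higher (8.0%) and none lower, with a median of -0.06 that turns to 0.01 as TPM. Those 2 were FERMT2, a kindlin that activates integrins (8.15 and 33.4 FPKM, 1.91), and the collagen receptor DDR2 (14.0 and 31.4, 1.11). TNS3, a tensin of adhesion sites, was at 22.2 and 10.6 (-0.99).

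The m6A peak lists held 64 peaks in 29 of the 76 genes in NC and 48 peaks in 27 in MA. Of the 29 tested genes, 24 had a peak in NC and 23 in MA, 82.8% and 79.3%, close to the 83.3% and 80.0% of all tested genes with a peak. The tested genes held 58 peaks in NC and 42 in MA, 27.6% fewer, where all tested genes held 20790 and 18918, 9.0% fewer. More peaks in NC than in MA were listed for 14 of the 29, more in MA for 3 and equal numbers for 7. Over all tested genes 31.2% had more in NC and 19.7% more in MA. With both lists brought to equal size by p-value the 76 genes had 62 peaks in NC and 48 in MA. Collagens made up much of this gap, with 24 peaks in NC and 15 in MA, while laminins had 17 and 15 and integrins 15 and 13. The 8 genes that were lower by 2-fold in the inputs had 12 peaks in each list, whereas the 20 genes within 2-fold had 45 in NC and 28 in MA. Over all tested genes the corresponding numbers were 563 and 447 for the lower genes and 17658 and 15961 within 2-fold. A difference in peak number between single lists is a description, since a peak that misses the authors' threshold is not a peak that is absent. The numbers also depend on how peaks are split. In ITGA9 the 1 NC peak spans both MA peaks, and in COL11A1 1 MA peak spans 2 NC peaks. The exonic length of the peaks of the 76 genes came to 22715 bases in NC and 18467 in MA. For all peaks it was 8774380 and 8615456.

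**Figure D3:**
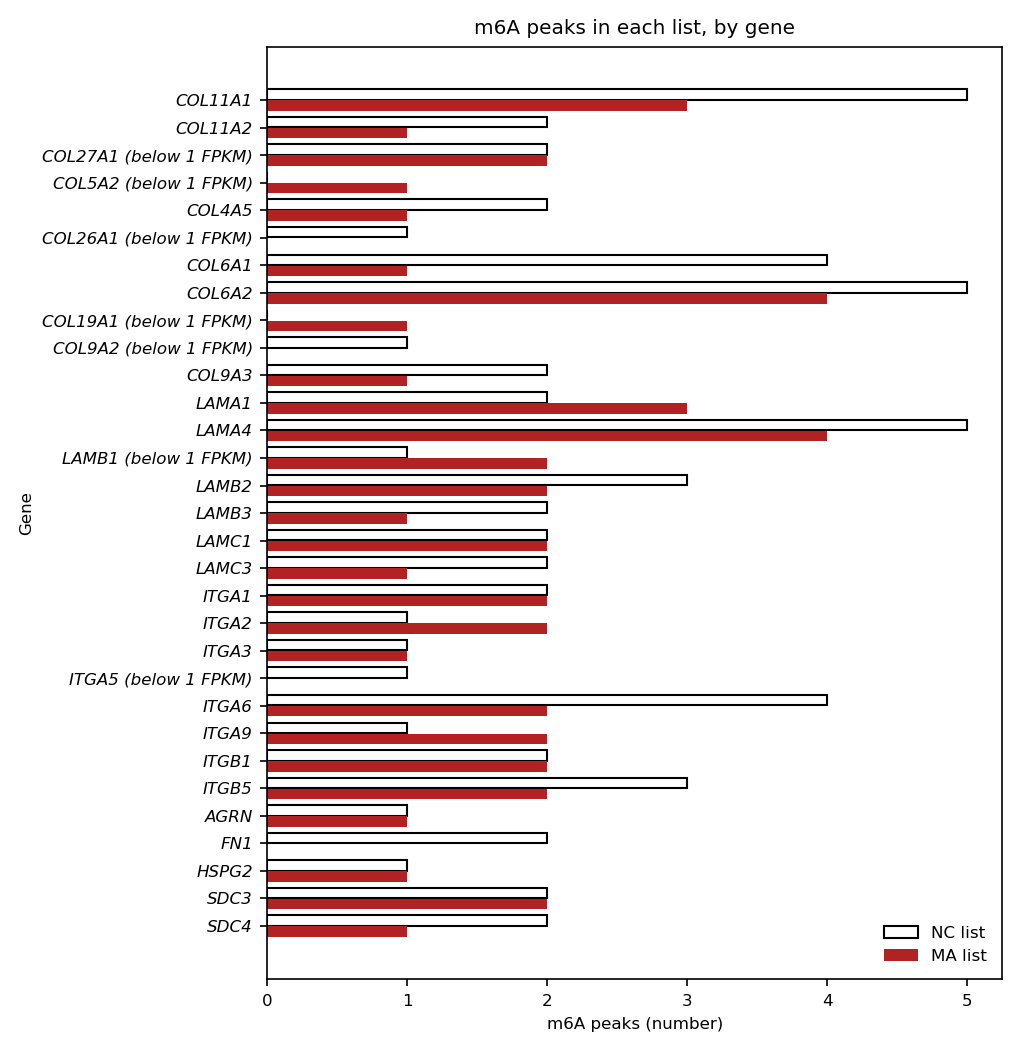
Number of m6A peaks in the NC list (open bars) and the MA list (red bars) for the 31 genes with a peak in at least 1 list, with genes below 1 FPKM marked. COL11A1, COL6A2 and LAMA4 held the most in NC with 5 each, and FN1 held 2 in NC and 0 in MA.

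Positions are given on GRCh38.p13 with the fold enrichment of RIP over input, which is the authors' value and is read only within its own list. AGRN had 1 peak in the 3' UTR in each list, chr1:1055022-1055720 in NC (fold 4.47) and chr1:1054972-1055720 in MA (fold 3.57). HSPG2 likewise had 1 short 3' UTR peak in each, chr1:21823092-21823241 in NC (fold 2.40) and chr1:21823142-21823291 in MA (fold 2.00). ITGA3, which binds laminin, had a long 3' UTR peak in both, chr17:50089436-50090232 in NC (fold 8.00) and chr17:50089387-50090382 in MA (fold 5.25). In all 3 genes the NC and MA peaks overlapped, while the input levels of AGRN and HSPG2 differed by over 2-fold.

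The highest fold of any member was in ITGA9. Its NC peak, chr3:37803883-37819926, had a fold of 12.5, above 98.7% of NC peaks. That peak was labelled 3' UTR but was not confined to a single exon, with 1096 exonic bases. For ITGA9 the MA list held a 3' UTR peak at chr3:37819180-37819329 (fold 9, above 97.5% of MA peaks) and an exon peak. The long peak of LAMC1, chr1:183132476-183143249 with 1647 exonic bases, had the same limits in both lists (fold 3.74 in NC, 3.11 in MA). LAMC1 also had a peak near its start in each, chr1:183023669-183024018 in NC and chr1:183023719-183024018 in MA. SDC3 had its longest peak at chr1:30872656-30877083 in NC (fold 3.90), which overlapped chr1:30872257-30877083 in MA (fold 2.97).

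Other genes had peaks at the start codon or 5' UTR. LAMB2 had one at chr3:49132541-49133066 in NC (fold 4.5) and chr3:49132591-49133016 in MA (fold 2.00). ITGA1 had one at chr5:52787966-52788266 in NC (fold 6) and chr5:52788016-52788315 in MA (fold 4.39). ITGA1 overlaps PELO, which was at a higher input level, and which transcript carries this peak was not tested. COL11A1 had one at chr1:103108282-103108580 in NC (fold 2.92) and chr1:103108232-103108580 in MA (fold 5.00). Start codon peaks of ITGB5 (chr3:124887253-124901268, fold 4.00) and SDC4 (chr20:45335872-45348424, fold 4.5) were listed in NC without a partner in MA.

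FN1 was the only gene of the 29 with peaks in 1 list alone. Of all tested genes, 7.29% had peaks in NC alone and 4.04% in MA alone. Its NC peaks were at chr2:215372076-215375224 (exon, fold 3.67) and chr2:215430715-215431845 (exon, fold 2.00), and MA listed 0, at input levels that differed by less than counting error. ITGA2 had peaks in both lists at different places: an exon peak at chr5:53056085-53059881 in NC (fold 7.00), and in MA an exon peak at chr5:53081638-53083431 (fold 2.43) and a 3' UTR peak at chr5:53092733-53092883 (fold 2.33). COL6A1 had 4 exon peaks in NC and 1 in MA at 2.54 and 2.26 FPKM. ITGA6 had 4 peaks in NC and 2 in MA, and its 3' UTR peak was shared (chr2:172504122-172504619, fold 4.00 in NC, and chr2:172504122-172504768, fold 3.78 in MA).

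No peak was listed in either list for 5 of the 29 tested genes (17.2%, against 12.7% of all tested genes). These were ITGAV and LAMA5, at up to 12.2 and 9.62 FPKM, and ITGA7, COL16A1 and ITGAE at lower levels. Of the 47 genes under 1 FPKM, 7 had a peak, and the share over all genes at such low levels was not computed. LAMB1 and COL27A1 had peaks in both lists, COL26A1, COL9A2 and ITGA5 in NC only, and COL19A1 and COL5A2 in MA only. These rest on few input reads, such as 41 in NC for COL26A1.

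After merging of touching peaks, 41 of the 64 NC regions of these genes overlapped a MA region on the same strand (64.1%, exact 95% interval 51.1 to 75.7%), against 73.8% of all NC regions. In the other direction, 39 of 48 MA regions had a NC partner (81.2%, 67.4 to 91.0%), against 79.6% of all. Both intervals include the value over all regions. Spans count introns, so an overlap need not be exonic. Only 43.8% of the NC peaks and 47.9% of the MA peaks of these genes lay within 1 exon, where 59.8% and 55.9% of all peaks did.

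Peaks carry 1 feature label each in the authors' lists, and the label is not stable: of 43 overlapping NC and MA peak pairs in these genes, 6 had different labels, among them LAMC1 (5' UTR in NC, exon in MA). Peaks labelled as exon made up 48.4% of the NC peaks of these genes (35.8 to 61.3%) and 33.8% of all NC peaks. In MA the shares were 43.8% (29.5 to 58.8%) and 34.0%. The 3' UTR held 34.4% of their NC peaks (22.9 to 47.3%) and 43.8% of their MA peaks (29.5 to 58.8%), against 42.1% and 42.8% of all peaks. The 5' UTR held 6.25% in NC (1.73 to 15.2%) and 4.17% in MA (0.509 to 14.3%), against 14.4% and 14.9%. The intervals for exon peaks in NC and for the 5' UTR in MA leave out the value over all peaks, and the other 4 include it, but the 5' UTR share in MA rests on 2 of 48 peaks and on these labels. Peaks of 1 gene share their libraries and transcript, so these intervals are too narrow.

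**Figure D4:**
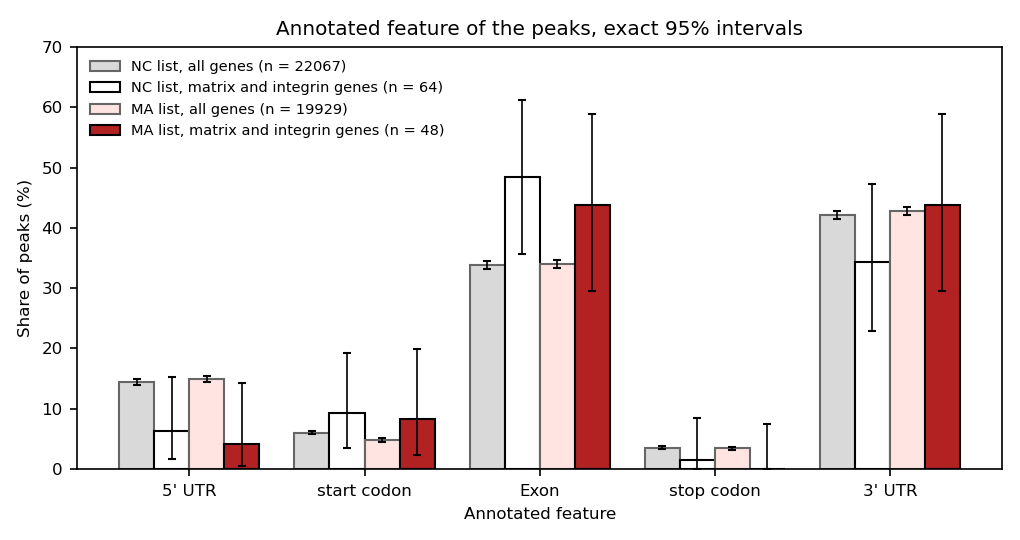
Share of peaks in percent by annotated feature, for all genes and for the matrix and integrin genes in each list, with exact 95% Clopper-Pearson intervals that cover counting error only. Exon peaks made up 48.4% of the 64 NC peaks and 43.8% of the 48 MA peaks of these genes, and 33.8% and 34.0% over all genes.

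The median fold enrichment of the peaks of these genes was 2.76 in NC and 2.81 in MA, where all peaks had medians of 3.57 and 3.07 within the same lists. Shared peaks had a median fold of 2.84 in NC and 2.86 in MA, and peaks without a partner 2.50 and 2.43. In the pathway column of the deposited table, 24 of the 29 tested genes carried ECM-receptor interaction, which 32 tested genes carried in all, and 21 carried focal adhesion, out of 123.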

How the data were processed

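The input levels are FPKM values, which the authors deposited in 1 gene table with a column for each input library. The peak p-value, false discovery rate and fold enrichment (a ratio of RIP over input) were computed by the authors and are named per the file headers. Per the submitters' processing notes, the build was GRCh38.p13 and the tools included ChIPseeker, deepTools, HISAT, HISAT2 and Trimmomatic. Which read counter, annotation release and peak caller were used is not given in the sources used here.

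Genes at 1 FPKM in at least 1 input were tested for size only, with a pseudocount of 1, and called at 2-fold. The members, roles and lists were chosen with earlier results of these data known. By the naming rule, every member could be named, and in the 2 pathway lists the 3 largest differences. In those lists further genes were counted only.

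Totals and minimum reads were recovered from the FPKM values, since each is a whole read number over length and total. Of 13055 genes above 0 in both inputs, 99.99% resolved, against 2.4% of 500 genes with a moved value. The totals were those at which 90 genes had their RefSeq span as length, against 19 for the next best. Some minimum reads are whole fractions of the true reads, which widens the intervals.

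Rows that repeat a peak were counted once (132 in NC, 99 in MA), and starts count from 1. In 14 of 20 genes with several NC peaks, and 8 of 15 in MA, peaks of 1 gene share a p-value, so those p-values are not separate per peak. Scripts used Python 3.11.15, pandas 2.3.3, NumPy 2.4.6 and SciPy 1.17.1 and were tested on simulated data. The alternatives are given in the closing section. Some items are not reported here.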

Additional observations from a re-analysis of the deposited data

How the results depend on the processing

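With 1 library per group, nothing here measures variation between cultures or preparations, and depth limits the genes under 1 FPKM and the shares over 64 and 48 regions. No paired analysis was possible because each group had 1 library. With a pseudocount of 5 FPKM, 0 of the 29 genes were called higher and 3 lower (ITGA2, ITGA7, ITGA9, LAMA1, LAMB2 and LAMB3 were then under 2-fold), against 2.58% and 1.46% of all tested genes. With a pseudocount of 0.1, 2 were called higher and 9 lower, against 17.0% and 4.26%, and as TPM 2 were called higher. Among peaks with a fold of 3 or more, 27 in NC and 21 in MA remained, and the shares of regions with a partner were 48.1% and 57.1%, against 60.9% and 75.2% of all regions. Among peaks within 1 exon there were 28 and 23. With an overlap of 50% of both regions the shares were 37.5% and 50%, against 46.3% and 51.2%. No gene called at 2-fold changed sign under the other pseudocounts or scalings. The median of the tested genes of the family ran from -0.49 at 5 FPKM or more to -0.0044 over all 76 genes, where the median of the matrix processing list was 0.0059 in place of -0.14. The causes were not tested.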
